A study of Mus musculus with 8 samples.

Results

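The Hedgehog receptors, transducers and targets are 9 genes that receive the Hedgehog signal, carry it into the cell or answer it: Ptch1, Hhip, Boc, Cdon, Gas1, Smo, Gli1, Gli2 and Gli3. They were chosen by name, as every non-control probe that the array files assign to one of these genes, which gave 15 probes. Of these, 13 probes were kept, all 9 genes among them, out of 42754 probes and 28940 genes measured in all. The samples were mouse embryos of strain C57BL/6 at E10.5 in a study of the conditional loss of Geminin (Gmnn), a protein that restrains the licensing of DNA replication. The 4 groups were neural tube of mutant embryos (labelled fl/fl; cre/o), neural tube of wild-type embryos, paraxial tissue of mutant embryos and paraxial tissue of wild-type embryos. There were 2 embryos per genotype, each of which gave both tissues, and 1 array per tissue and embryo. The tissues were cut out by laser capture, total RNA was isolated and cDNA was hybridised to a 1-colour Agilent array. The labels do not name the promoter that drives Cre, nor the genotype of the wild-type embryos at the floxed allele or the transgene.

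Hedgehog proteins are secreted signals. Ptch1 is their receptor and holds the membrane protein Smo inactive until a Hedgehog protein binds; Boc, Cdon and Gas1 are co-receptors that help Ptch1 bind it, and Hhip binds the ligand and keeps it from the receptor. Active Smo works through the primary cilium on the zinc finger factors Gli2 and Gli3, and Gli1, Ptch1 and Hhip are themselves switched on by the pathway. In the embryo, Shh from notochord and floor plate patterns the ventral neural tube and induces sclerotome in the neighbouring somites.

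All levels are log2 of the processed red signal, scaled to the 75th percentile of each array, and differences are on that scale. A gene is represented by its brightest kept probe, and levels are compared between arrays for 1 probe and not between probes. Errors of levels are SDs and errors of differences are standard errors of limma's model, which has the embryo as a random block. A difference passed the test when its p-value, adjusted by Benjamini-Hochberg over all 28940 genes, was under 0.05. The p-values rest on 2 embryos per genotype.

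The targeted gene Gmnn stood at 12.11 and 11.80 in mutant neural tubes, against 12.35 and 12.24 in wild-type neural tubes. In paraxial tissue Gmnn stood at 11.42 and 11.39 in mutants, against 12.20 and 11.88 in wild types. The mutant arrays lay below the wild-type arrays in both tissues, by -0.35 ± 0.25 in neural tube and -0.63 ± 0.25 in paraxial tissue, and neither difference passed (limma, adjusted p = 0.921 and 0.996). The share of probes that an array read well above its background ran from 71.5% to 77.9%. Of 15 measured markers of neural tube, 12 were higher in neural tube than in paraxial tissue by limma's test over both genotypes, and 12 of 15 measured paraxial markers were lower there. In bulk tissue, fewer cells of a type and less RNA per cell cannot be told apart.

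The 2 probes of Ptch1 are shown because its results depend on which probe is read. The 2 of Hhip and the 2 of Smo are shown because only 1 of each pair was kept. All these probes are 60-base oligonucleotides given 5′ to 3′, at mm9 positions from the array files. The Ptch1 probes lie on the minus strand at chr13:63612879-63612938 (A_55_P2107292, the brighter) and chr13:63610298-63610357 (A_52_P598605). Hhip was read on the minus strand at chr8:82494280-82494339 (A_55_P1969276), while A_51_P416822 at chr8:82490729-82490788 gave a signal well above background on 0 of the 8 arrays. Smo was read on the plus strand at chr6:29711225-29711284 (A_51_P258766). Its other probe at chr6:29710919-29710978 was left out because its spot was marked as an outlier on 1 array; capitals mark the CA runs in it, which cover 35 of its 60 bases.
Ptch1 A_55_P2107292: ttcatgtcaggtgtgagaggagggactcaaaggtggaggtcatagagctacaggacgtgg
Ptch1 A_52_P598605: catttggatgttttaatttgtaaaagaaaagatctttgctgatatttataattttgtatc
Hhip A_55_P1969276: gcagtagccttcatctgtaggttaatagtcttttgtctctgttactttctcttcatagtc
Hhip A_51_P416822: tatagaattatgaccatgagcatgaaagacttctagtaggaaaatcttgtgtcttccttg
Smo A_51_P258766: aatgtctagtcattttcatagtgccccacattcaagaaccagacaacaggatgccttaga
Smo A_55_P2121484: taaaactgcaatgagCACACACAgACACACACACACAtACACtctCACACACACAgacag
The Ptch1 probes differ most in composition, with 53.3% G and C in the brighter and 21.7% in the other. On the repeat-bearing Smo probe the 7 usable arrays read between 17.27 and 18.18.

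**Figure D1:**
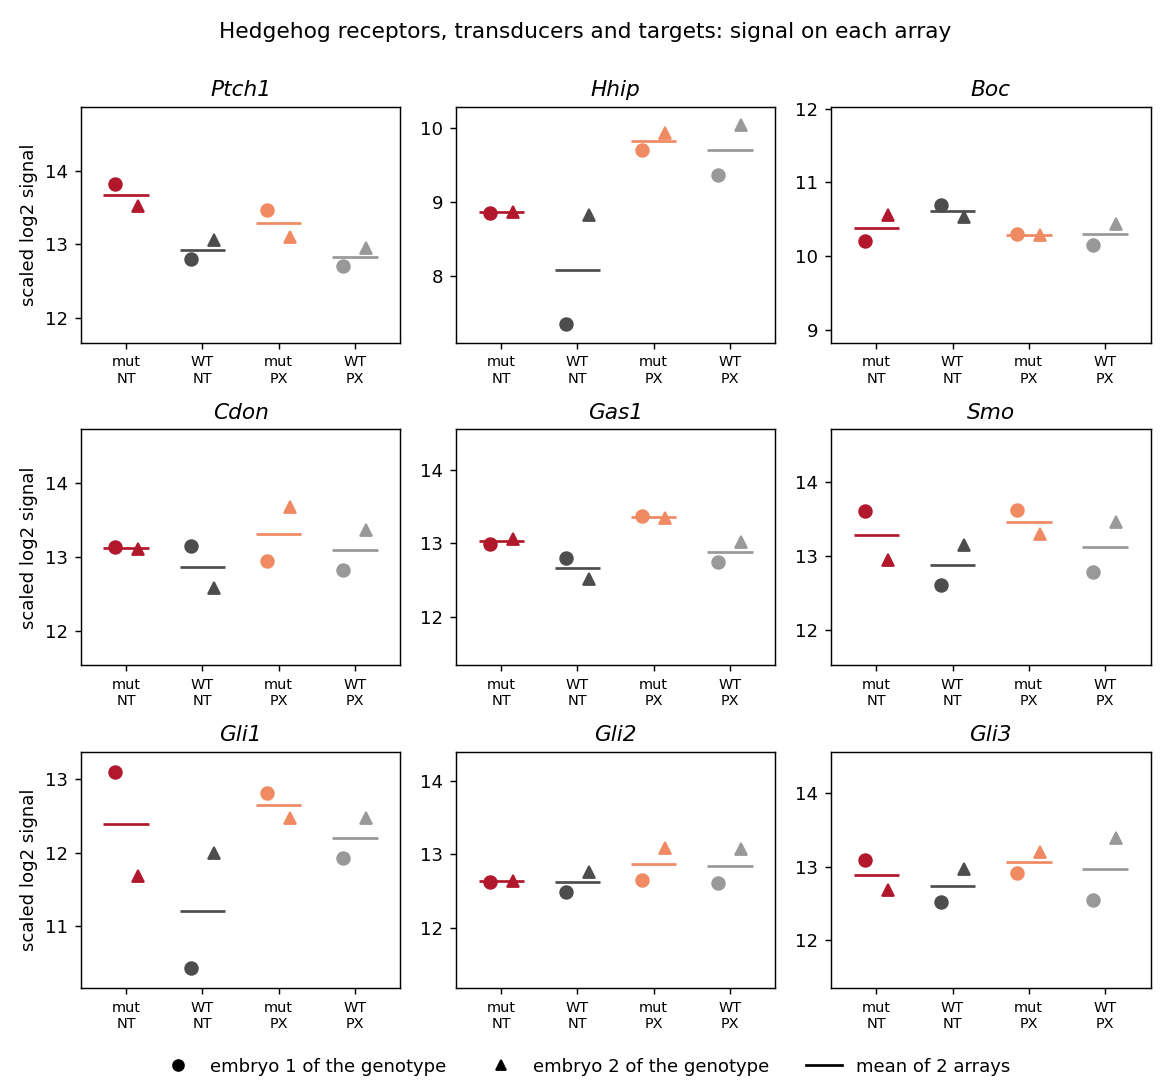
Scaled log2 signal (y axis, each panel spanning the same range of log2 units) of the 9 genes on each array, with mutant neural tube (mut NT), wild-type neural tube (WT NT), mutant paraxial tissue (mut PX) and wild-type paraxial tissue (WT PX) along the x axis. Circles and triangles are the 2 embryos of a genotype and bars are means of 2 arrays. Hhip is lower in every neural tube than in every paraxial sample, and Ptch1 is higher in both mutants than in both wild types in each tissue.

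The first comparison set neural tube against paraxial tissue, within embryos. Hhip, the secreted-ligand trap, was the 1 gene of the 9 that passed, and it was lower in neural tube. It stood at 8.86 and 8.87 in mutant neural tubes, against 9.71 and 9.94 in the paraxial tissue of the same embryos. In wild types Hhip stood at 7.34 and 8.83 in neural tubes, against 9.37 and 10.04 in paraxial tissue. All 4 neural tube values lay below all 4 paraxial values, and the wild-type neural tube of embryo 1 was the lowest of the 8 arrays.

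Over both genotypes Hhip was lower in neural tube by -1.29 ± 0.21 (limma, adjusted p = 0.00988), a 2.45-fold difference. In that comparison 3459 genes passed, which is 12% of all genes tested (5.94% higher and 6.01% lower in neural tube), so that 1 of 9 is near the background. Hhip was lower in each of the 4 embryos, by between -2.03 and -0.86. In wild types alone the difference was -1.63 ± 0.29 (adjusted p = 0.0434, a 3.08-fold difference), where 2.45% of genes passed. In mutants alone it was -0.96 ± 0.29 (adjusted p = 0.118), where 5.85% of genes and none of the 9 passed; without 1 or the other wild-type neural tube array, which leaves the estimate as it is, it passed (adjusted p = 0.0475 each). The difference between the genotypes in this step was 0.66 ± 0.41 and did not pass (limma's interaction, adjusted p = 0.963).

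The call over both genotypes held when any 1 array was left out, with Hhip between -1.56 and -1.02, as long as the embryo correlation was kept. With the correlation estimated again it was lost without the neural tube of mutant embryo 1 (limma, adjusted p = 0.0505), the neural tube of mutant embryo 2 (0.0658) or the paraxial tissue of mutant embryo 2 (0.0638). It was also lost without either mutant embryo (adjusted p = 0.0759 without embryo 1 and 0.107 without embryo 2) and when the embryo was left out of the model (adjusted p = 0.128). The wild-type call was weaker: it held under 10 of 33 alternatives, and without the wild-type neural tube of embryo 1 the difference was -1.09 with the correlation kept (limma, adjusted p = 0.0849) and -1.14 with it estimated again, where it passed (adjusted p = 0.037). Either way it held without the wild-type neural tube of embryo 2 and was lost without any of the 6 other arrays. With the replicate number, which is also the row on the slide, as a block, the wild-type call was lost (adjusted p = 0.0555) and the call over both genotypes held (adjusted p = 0.0137). On the neural tube array with the lowest Hhip, 10 of 15 paraxial markers exceeded background clearly (the scanner's flag), against all 15 on the other wild-type neural tube array and 13 on each mutant one. The summed signal of those markers was 37040 and 45930 in mutant neural tubes and 28310 and 47820 in wild-type ones, and 155000 and 177800 in mutant paraxial tissue and 139000 and 195800 in wild-type paraxial tissue. The 15 neural tube markers were above background on every array. They summed to 153100 and 191000 in mutant neural tubes and 195800 and 196200 in wild-type ones, and to 70030 and 50910 in mutant paraxial tissue and 121500 and 62990 in wild-type paraxial tissue. The paraxial array of wild-type embryo 1 thus had the highest neural tube signal of the 4 paraxial arrays. The part of either marker list in the tissue differences of the 9 genes was not tested.

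Ptch1, the Hedgehog receptor and a target of the pathway, ran the other way on both of its probes. On the probe used for the gene, Ptch1 stood at 13.82 and 13.53 in mutant neural tubes, against 13.46 and 13.10 in mutant paraxial tissue. In wild types it stood at 12.80 and 13.05 in neural tubes, against 12.71 and 12.95 in paraxial tissue. Neural tube was the higher tissue in each of the 4 embryos. The tissues did not overlap in mutants and did overlap in wild types. The difference over both genotypes was 0.25 ± 0.11 and did not pass (limma, adjusted p = 0.210).

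On the second Ptch1 probe the tissue difference was larger and passed. That probe stood at 10.31 and 9.64 in mutant neural tubes, against 9.26 and 8.58 in mutant paraxial tissue. In wild types it stood at 8.83 and 8.66 in neural tubes, against 8.34 and 7.97 in paraxial tissue. Within each genotype both neural tubes lay above both paraxial samples. When each of the 42754 kept probes was tested on its own, the second Ptch1 probe was higher in neural tube by 0.83 ± 0.14 over both genotypes (limma, adjusted p = 0.0130) and by 1.06 ± 0.20 in mutants (adjusted p = 0.0332). In these fits 12% and 5.55% of probes passed. In wild types, where 2.31% of probes passed, it differed by 0.60 ± 0.20 (adjusted p = 0.187).

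The 2 Ptch1 probes start 2581 bases apart on the genome, and the second lies nearer the 3′ side of this minus-strand gene. With the mean of both probes standing for the gene, Ptch1 was higher in neural tube by 0.54 over both genotypes (limma, adjusted p = 0.0253) and by 0.72 in mutants (adjusted p = 0.0461). Ptch1 therefore has the same direction in all 4 embryos on both probes, while the size and the call depend on the probe.

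**Figure D2:**
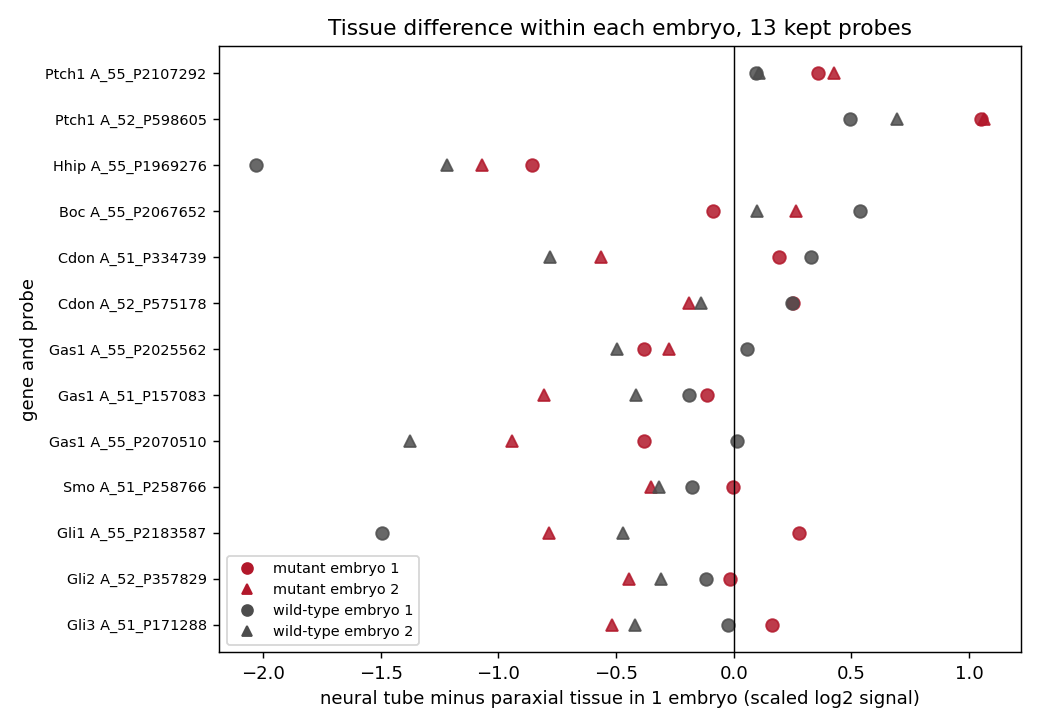
Neural tube minus paraxial tissue in each embryo (x axis, scaled log2 signal) for the 13 kept probes (y axis), with mutant embryos in red, wild-type embryos in grey, and circles and triangles for embryos 1 and 2 of a genotype. Both Ptch1 probes lie above 0 in all 4 embryos and Hhip lies below 0 in all 4, while Cdon is split on both of its probes.

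Among the co-receptors, none passed between the tissues. Gas1, a membrane-anchored co-receptor, has 3 kept probes. On the probe used, Gas1 stood at 12.99 and 13.06 in mutant neural tubes, against 13.37 and 13.34 in mutant paraxial tissue, and at 12.80 and 12.52 in wild-type neural tubes, against 12.75 and 13.02 in wild-type paraxial tissue. Mutant tissues did not overlap, whereas wild-type tissues did. The difference over both genotypes was -0.27 ± 0.12 (limma, adjusted p = 0.205). With the correlation estimated again it was -0.40 and passed without either array of wild-type embryo 1 (adjusted p = 0.0373 without its neural tube and 0.0475 without its paraxial tissue). The other Gas1 probes had differences of -0.38 ± 0.18 and -0.67 ± 0.23 when tested on their own (adjusted p = 0.230 and 0.112). All 3 probes therefore had a negative difference, the probe used being the richest in G and C, at 85.0%.

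Boc, an immunoglobulin-family co-receptor, stood at 10.21 and 10.56 in mutant neural tubes and at 10.30 and 10.29 in mutant paraxial tissue. In wild types Boc stood at 10.69 and 10.54 in neural tubes, against 10.44 at most in paraxial tissue, where the lower array read 10.16. The wild-type tissues did not overlap and the mutant ones did, with a difference over both genotypes of 0.20 ± 0.12 (limma, adjusted p = 0.352). Its relative Cdon stood at 13.13 and 13.12 in mutant neural tubes, against 12.94 and 13.68 in mutant paraxial tissue. In wild types Cdon stood at 13.15 and 12.58 in neural tubes, against 12.83 and 13.36 in paraxial tissue. In embryo 1 of each genotype Cdon was higher in neural tube and in embryo 2 it was lower, on both Cdon probes, so that the mean difference of -0.21 ± 0.21 stands for no embryo.

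Smo, the transducer that Ptch1 controls, stood at 13.62 and 12.95 in mutant neural tubes, against 13.62 and 13.30 in mutant paraxial tissue. In wild types it stood at 12.61 and 13.14 in neural tubes, against 12.79 and 13.46 in paraxial tissue. Smo was lower in neural tube in all 4 embryos, by less than the spread between embryos of a genotype (-0.21 ± 0.15; limma, adjusted p = 0.419).

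Gli1, the activator whose own transcription reports the pathway, varied most among the 3 Gli genes. It stood at 13.09 and 11.69 in mutant neural tubes, against 12.81 and 12.47 in mutant paraxial tissue. In wild types Gli1 stood at 10.43 and 12.00 in neural tubes, against 11.93 and 12.47 in paraxial tissue. The neural tubes of 1 genotype differ from each other by more than the paraxial samples do, and embryo 1 holds both the highest mutant and the lowest wild-type value. The tissue difference was -0.62 ± 0.29 (limma, adjusted p = 0.227), with neural tube lower in 3 of 4 embryos.

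Gli2, the main activator at the start of the response, stood at 12.63 and 12.64 in mutant neural tubes, against 12.65 and 13.08 in mutant paraxial tissue. In wild types Gli2 stood at 12.50 and 12.77 in neural tubes, against 12.61 and 13.08 in paraxial tissue. It was lower in neural tube in all 4 embryos, in some by almost nothing, with a difference of -0.22 ± 0.13 (limma, adjusted p = 0.325). Gli3, whose processed form represses targets, stood at 13.08 and 12.68 in mutant neural tubes, against 12.92 and 13.20 in mutant paraxial tissue. In wild types Gli3 stood at 12.52 and 12.96 in neural tubes, against 12.55 and 13.38 in paraxial tissue. The groups overlap throughout, and the difference was -0.20 ± 0.17 (limma, adjusted p = 0.503). Of the 9 genes, 7 had a negative tissue difference, with a median of -0.21, against -0.02 over all genes. The tissues did not overlap for 4 of the 9 in mutants (Ptch1, Hhip, Gas1 and Gli2), against 36.2% of all genes, and for 2 of the 9 in wild types (Hhip and Boc), against 35.2%.

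The second comparison set mutant against wild type within each tissue, which asks whether these genes differed between embryos of the 2 genotypes. None of the 9 passed in neural tube or in paraxial tissue, and nor did any other gene: 0% of 28940 genes passed limma's test in either tissue or in the interaction. An unadjusted p under 0.05 was found for 1050 genes in neural tube, 971 in paraxial tissue and 1495 in the interaction. These are 3.63%, 3.36% and 5.17% of the genes tested, near or below what a cutoff of 0.05 gives without any difference. Without the paraxial array of mutant embryo 1, 16 genes passed in paraxial tissue and 19 in the interaction, and without that of wild-type embryo 2, 7 and 15 did, none of the 9 among them. Between these small groups the count of values that do not overlap says little. In neural tube the mutant and wild-type values did not overlap for 3 of the 9 (Ptch1, Hhip and Gas1), against 31.9% of all genes, and in paraxial tissue for 3 of the 9 (Ptch1, Gas1 and Gli1), against 37.3%.

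Ptch1 was higher in both mutants than in both wild types, in each tissue and on each of its probes. In neural tube the difference was 0.74 ± 0.24 on the probe used (limma, adjusted p = 0.921), with a 95% interval of 0.16 to 1.32. Among the 9 genes in the 2 tissues, on the probes used, this is the only unadjusted interval that leaves out 0. In paraxial tissue the Ptch1 difference was 0.45 ± 0.24 (adjusted p = 0.996). On the second probe, tested on its own, the differences were 1.23 ± 0.32 in neural tube and 0.77 ± 0.32 in paraxial tissue (adjusted p = 0.918 and 0.994). No difference between the tissues in this step was called for Ptch1 (0.29 ± 0.22; adjusted p = 0.966).

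Shh, the ligand made by floor plate and notochord, had mutant and wild-type values apart in the same direction. It stood at 12.00 and 11.88 in mutant neural tubes, against 10.94 and 10.79 in wild-type neural tubes. In paraxial tissue Shh stood at 9.17 and 9.68 in mutants, against 8.69 and 8.77 in wild types. Mutant arrays lay above wild-type arrays in both tissues, by 1.07 ± 0.30 in neural tube and 0.69 ± 0.30 in paraxial tissue, and neither passed (limma, adjusted p = 0.921 and 0.996). The receptor gene and the ligand gene thus shared the sign of the mutant difference in each tissue, without a call for either. Shh is 1 of 10 genes for Hedgehog ligands and their release. In mutant neural tube 3 of these had higher means and 7 lower (median -0.04), and in paraxial tissue 6 and 4 (median 0.21). Of 14 measured genes named as Hedgehog targets in several tissues, 7 were higher and 7 lower in mutant neural tube (median -0.06). In paraxial tissue 13 were higher and 1 lower (median 0.42).

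Gas1 had mutant values above wild-type values in both tissues on the probe used, by 0.36 ± 0.27 in neural tube and 0.47 ± 0.27 in paraxial tissue (limma, adjusted p = 0.921 and 0.996). On A_51_P157083 mutant and wild-type values overlapped in both tissues, with differences of 0.13 ± 0.40 in neural tube and 0.29 ± 0.40 in paraxial tissue. On A_55_P2070510 they did not overlap, with differences of 0.69 ± 0.51 and 0.67 ± 0.51. Hhip differed by 0.78 ± 0.46 in neural tube, and by 0.24 there without the wild-type array of embryo 1, and by 0.12 ± 0.46 in paraxial tissue. Gli1 had the widest interval, with 1.17 ± 0.64 in neural tube (95% interval -0.35 to 2.69) and 0.45 ± 0.64 in paraxial tissue. With arrays or embryos left out, the Gli1 difference in neural tube ran from 0.39 to 1.96, and it was 0.57 without the neural tube of mutant embryo 1 and 0.55 without that of wild-type embryo 1.

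Smo differed by 0.41 ± 0.33 in neural tube and 0.34 ± 0.33 in paraxial tissue, with overlapping groups. For Gli2, Gli3, Boc and Cdon the differences lay between -0.23 and 0.26 in both tissues, each smaller than its standard error. The intervals remain wide: that of Gli2 in neural tube ran from -0.67 to 0.68, so differences within that range are compatible with these arrays. The interval is unadjusted and is not a limit of detection. On the probes used, 8 of the 9 differences were positive in each tissue. Their medians were 0.36 in neural tube and 0.22 in paraxial tissue, against -0.01 and 0.03 over all genes. The second Cdon probe had the other sign, with -0.05 ± 0.30 in neural tube and -0.03 ± 0.30 in paraxial tissue. Leaving out arrays or embryos moved the number of positive differences between 6 and 8 in neural tube and between 3 and 9 in paraxial tissue.

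Markers of other cell types differed between mutants and wild types, though none passed. All 13 measured surface ectoderm and epithelial markers had higher means in mutant paraxial tissue, with a summed signal of 374500 and 337200 in mutants, against 255400 and 285000 in wild types. These sums are mostly the signal of Trp63, at 18.22 and 18.12 in mutants, against 17.85 and 17.97 in wild types. The mean log2 level of the 13 was 12.49 and 11.94 in mutant paraxial tissue, against 10.88 and 11.24 in wild-type paraxial tissue. The summed signal of 8 erythroid markers was 696600 and 590000 in mutant paraxial tissue, against 349800 and 407400 in wild-type paraxial tissue, and that of 10 endothelial markers was 115400 and 106100, against 66640 and 85240. All of these markers were well above background on both mutant arrays. In neural tube, where Ptch1 differed most, the 8 erythroid markers summed to 419700 and 342300 in mutants, against 348500 and 327700 in wild types. The sums of the 13 surface ectoderm markers, mostly the signal of Trp63, were 310700 and 269400 in mutants, against 297300 and 193200 in wild types. Their mean log2 level did not overlap there, at 11.59 and 11.19 in mutant neural tubes, against 10.78 and 10.89 in wild-type neural tubes, and 10 of 13 had higher means in mutants, with a median difference of 0.68. The 10 endothelial markers summed to 40860 and 59350 in mutant neural tubes, against 46540 and 72350 in wild-type neural tubes. Of 8 measured notochord markers, Shh among them, 6 had higher means in mutants in each tissue, with median differences of 0.54 in neural tube and 0.68 in paraxial tissue. Their mean log2 level was 11.43 and 10.98 in mutant neural tubes, against 10.35 and 11.08 in wild-type neural tubes. For paraxial tissue the mutant arrays read 10.37 and 10.03, while the wild-type arrays read 9.21 and 9.53. Their summed signal overlapped between genotypes in both tissues. Neural tube sums ran from 26460 to 33690 for mutants and from 19490 to 31290 for wild types. Paraxial sums ran from 32520 to 40200 for mutants and from 26170 to 33970 for wild types. Of the 8, Foxa1 was not well above background on any paraxial array, and Foxa2 was on 1 of 2 wild-type ones. The size of the paraxial difference in mean log2 level is therefore uncertain. Of the 15 neural tube markers, 13 had lower means in mutant than in wild-type paraxial tissue, with a median difference of -0.48. The part of these markers in the levels of the 9 genes was not tested.

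**Figure D3:**
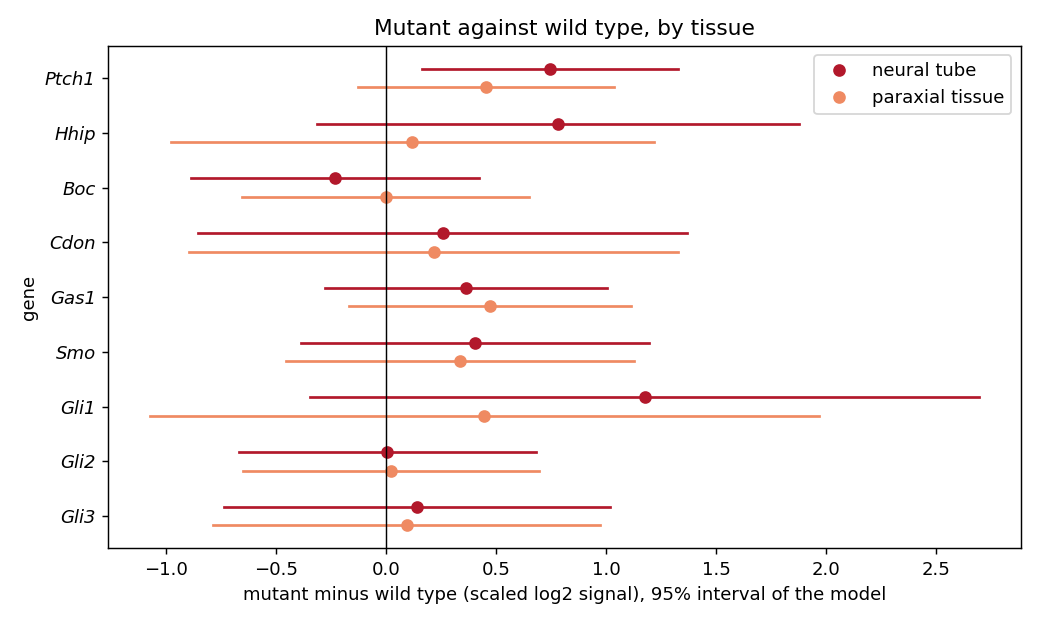
Mutant minus wild type (x axis, scaled log2 signal) for the 9 genes (y axis) in neural tube (red) and paraxial tissue (orange), with points for limma's estimate and lines for its 95% interval without adjustment. All intervals but that of Ptch1 in neural tube (0.16 to 1.32) include 0, and no difference passed after adjustment.

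The rest of the pathway gives the setting of the tissue difference, over both genotypes by the same limma test. Of 10 genes for Hedgehog ligands and their release, 2 were higher in neural tube and 4 lower, with a median of -0.14. Shh was higher there by 2.33 ± 0.13 (adjusted p = 0.00138), and Scube2, which helps release Shh from cells that make it, by 1.08 ± 0.14 (adjusted p = 0.00546). Dhh, the ligand known from Schwann cells and testis, was lower by -0.95 ± 0.11 (adjusted p = 0.00414), and so was the glypican gene Gpc5, by -0.95 ± 0.16 (adjusted p = 0.0122).

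Between mutants and wild types none of these lists had a gene that passed. Of 19 measured pathway regulators, 2 were higher in neural tube and 1 was lower. Lrp2, an endocytic receptor that binds Shh, was higher by 2.08 ± 0.29 (limma, adjusted p = 0.00675) and the kinase gene Stk36 by 0.44 ± 0.11 (adjusted p = 0.0433). Tulp3, which controls entry of receptors into the cilium, was lower by -0.65 ± 0.12 (adjusted p = 0.0181). Of 19 measured genes for the primary cilium, 2 were higher, Tctn2 by 0.66 ± 0.12 and Ttc21b by 0.52 ± 0.11, and Tctn1 was lower by -0.54 ± 0.13 (adjusted p = 0.0176, 0.0291 and 0.0451). Most of these regulators and cilium genes, like most of the 9 genes, had no call between the tissues. The same holds for genes at large, of which 12% passed in this comparison.

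The patterned outputs of the signal were split by tissue. Of 13 measured ventral neural tube genes that Shh induces, 10 were higher in neural tube and none lower, with a median of 2.07. They include Nkx2-2, a factor of the most ventral progenitors, by 2.60 ± 0.15 (limma, adjusted p = 0.00138), and the floor plate factor Foxa2 by 3.90 ± 0.31 (adjusted p = 0.00180). Foxa2 was well above background on 1 of 2 wild-type paraxial arrays, so the size of its difference is uncertain. Nkx6-1, a factor of the wider ventral domain, was higher by 2.23 ± 0.21 (adjusted p = 0.00243). Nkx6-2 was not well above background on any paraxial array, and in mutants it was at least 7.43-fold higher in neural tube (adjusted p = 0.0135), taking the lowest signal well above background as the floor. Of 10 measured neural tube genes that Shh holds back, 8 were higher in neural tube, among them Dbx1 by 1.95 ± 0.23 and Pax6 by 2.52 ± 0.30. Both kinds of neural tube gene were thus higher in that tissue.

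Of 14 measured sclerotome genes that Shh induces, 9 were lower in neural tube and 1 was higher, with a median of -1.67. Foxc2 was lower by -2.03 ± 0.15 (limma, adjusted p = 0.00180) and Foxc1 by -1.75 ± 0.20 (adjusted p = 0.00370), both forkhead factors of the paraxial mesoderm, while the Wnt inhibitor gene Sfrp2 was higher by 0.83 ± 0.10 (adjusted p = 0.00461). Of 14 measured genes named as Hedgehog targets in several tissues, 6 were lower and none higher, with a median of -0.92. Among them were the growth factor gene Igf2 by -2.15 ± 0.16 and the T-box factor gene Tbx2 by -2.66 ± 0.20 (adjusted p = 0.00180 for both), Hsd11b2 by -1.47 ± 0.15 (adjusted p = 0.00277) and Osr1 by -2.59 ± 0.35 (adjusted p = 0.00589). Tbx2 was well above background on 1 of 2 mutant neural tube arrays, which leaves the size of its difference uncertain. Of the 3 pathway targets among the 9 genes, Hhip was lower in neural tube like these lists, while Gli1 (-0.62) and, on the probe used, Ptch1 (0.25) did not pass.

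**Figure D4:**
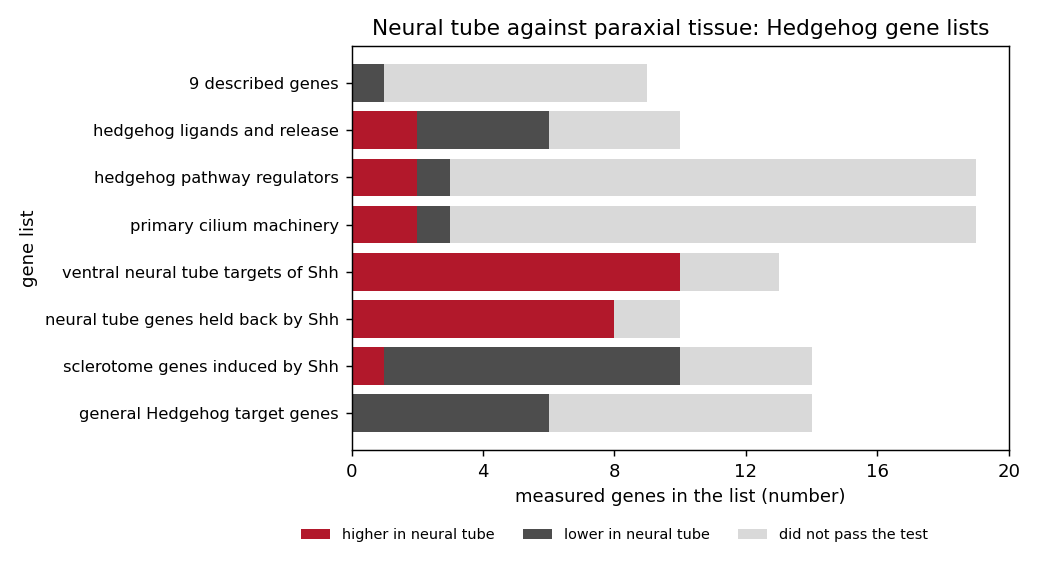
Number of measured genes (x axis) in the 9 genes described and in each other Hedgehog list (y axis) that were higher in neural tube (red), lower in neural tube (dark grey) or did not pass (light grey), over both genotypes by limma at an adjusted p under 0.05. The ventral neural tube list has 10 of 13 higher and the sclerotome list 9 of 14 lower. Of the 9 described genes 8 did not pass, which is near the background, as 12% of all genes tested passed.

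Over the 8 arrays, the genes most like Gli1 in signal were Arhgap9 (Pearson r = 0.990), Ndufaf1 (0.982), Ror2 (0.980), Zcchc3 (0.979) and Atf1 (0.970). For Gas1 they were headed by Ubap2l (0.986). These were picked as the highest of 25647 genes well above background on all arrays, the arrays share embryos, and the values are a description without a test.

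For 7 of the 9 genes a promoter of 300 bases around the start was given by RefSeq on GRCm38.p6 (not for Gli1 or Boc). The Gli-binding motif TGGGTGGTC, searched on both strands, was in none of them and in 0.253% of all 32851 promoters. That says only that these letters are not in these windows.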

How the data were processed

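Per the labels, RNA from laser-captured tissue was labelled with Cy5 by the Kreatech ULS kit. Agilent Feature Extraction 11.0.1.1 made the intensity values from the red channel, with detrending, per the file headers; the array design was annotated on mm9. The deposited intensity values are linear, 1 file per array. The authors' value table holds the same intensity values within 0.497% and served as an alternative.

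Control and outlier-marked spots were left out and spots of a probe averaged. After log2, each array's 75th percentile was subtracted. A probe was kept if some group had it well above background on both arrays, and the brightest probe stood for each gene. Names came from a RefSeq table (26056 probes by accession, 3200 by symbol), otherwise from the files. No mm9 annotation was used, so no exon is given. All 8 arrays lay on 1 slide, replicate 1 arrays in row 1.

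limma 3.58.1 in R 4.3.3 fitted 4 group means to 8 arrays. The embryo was a random block (correlation 0.603 by duplicateCorrelation), because the labels name the embryo of each tissue. Tissues of an embryo deviated together (r across genes 0.562 in wild types and 0.607 in mutants). Mutant and wild-type embryos of 1 number share a slide row, and replicate 1 arrays of the 2 genotypes deviated together (r across genes 0.291 in each tissue), so the number was tried as a block. On simulated arrays of 28940 genes, 46% of mutant differences of 2 (log2) in neural tube were recovered and 0% of those of 1. That run, with all sizes together, had 7 false calls. For the tissue difference over both genotypes, 54% of differences of 1 and 92% of those of 2 were recovered, with 14 false calls in the whole run. The simulation changed 50 genes at each of the sizes 0.5, 1, 2 and 3. In the data 3459 genes passed between the tissues, which moves the cutoff, so recovery there can differ.

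The genes and lists were chosen with earlier results of these data known. All 9 genes are named, though not every one of their probes. In each other list up to 4 called genes, or 3 uncalled ones, with the smallest p may be named, and for Gli1 and Gas1 up to 5 genes most alike.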

Additional observations from a re-analysis of the deposited data

How the results depend on the processing

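The alternatives were other scalings, normexp background correction (offset 50), other filters on dim probes, other rules for probes, the authors' table, other moderation, other blocks, and leaving out arrays or embryos. A refit with the correlation estimated again was chosen after seeing the data. Over both genotypes the count of the 9 genes that passed between tissues (1) became 2 with the mean of probes or every probe on its own, and 0 with no replicate block. In mutants it became 1 under normexp and under both probe rules, against 0. In wild types it became 0 under quantile and cyclic loess scaling, with no filter, with no block, and with a replicate block by embryo (fixed) or number. Genes passing over both genotypes were 2298 with no filter, 593 with no replicate block and 1973 with the fixed block. In mutants they were 610, 0 and 211, and 1025 with the replicate number as a block. In wild types they were 362, 4, 51 and 414 in the same order, 1510 under normexp and 1089 with trended, robust moderation. The interaction had 4 under cyclic loess. Replicate numbers are also slide rows, and mutant and wild-type arrays of 1 number deviated together (r = 0.291 in each tissue). The labels give no pairing of mutants with wild types, and the pairing of tissues by embryo comes from them. Higher calls over both genotypes were 49.7% of calls, against 39.4% under normexp, and in wild types 31.3%, against 41.3% under median scaling, which moved the median mutant difference of all genes in paraxial tissue to 0.124.

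With arrays or embryos left out, genes passing ran from 794 to 6469 over both genotypes, 0 to 3200 in mutants, 31 to 2683 in wild types, 0 to 17 for mutants against wild types in paraxial tissue and 0 to 32 for the interaction. The 9 genes gave 0 to 2 calls over both genotypes, 0 to 1 in mutants and 0 to 1 in wild types. Signs changed only for differences that had not passed. Mutant minus wild type in neural tube, Gli2 was -0.048 under quantile scaling, -0.086 under cyclic loess and -0.020 under normexp, and in paraxial tissue -0.019 and -0.048 under the first and second of these. Boc in paraxial tissue was 0.084 under quantile, 0.091 under median and 0.043 under cyclic loess scaling, 0.051 under normexp and 0.00020 from the authors' table. Ptch1 between wild-type tissues was -0.027 under normexp. With arrays or embryos left out, mutant minus wild type in neural tube ran from -0.13 to 0.14 for Gli2, -0.14 to 0.43 for Gli3 and -0.23 to 0.74 for Cdon. In paraxial tissue it ran from -0.21 to 0.25 for Gli2, -0.32 to 0.51 for Gli3, -0.28 to 0.71 for Cdon, -0.21 to 0.20 for Boc, -0.22 to 0.45 for Hhip and -0.00032 to 0.67 for Smo. Cdon between tissues ran from -0.48 to 0.071. The cause was not tested. With a single array in a group, that array is assumed to vary like the others. The number of arrays limits the precision throughout.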
